A study of Mus musculus with 7 samples.

Results

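The interferon-stimulated genes examined here were 39 named genes, a list of well-known targets of interferon. They fell into 29 genes grouped as type I-like (Isg15, Rsad2, Ifih1, Ifit1, Ifit2, Ifit3, Xaf1, Stat2, Irf7, Irf9, Usp18, Oasl2, Oasl1, Oas1a, Oas2, Oas3, Mx1, Mx2, Ddx58, Dhx58, Bst2, Ifi44, Ifi35, Ifi27l2a, Zbp1, Parp14, Rtp4, Eif2ak2 and Trim25) and 10 grouped as gamma-like (Irf1, Gbp2, Gbp3, Gbp4, Gbp7, Psmb8, Psmb9, Tap1, Irgm1 and Igtp). Of the 39, 37 were among the 31253 genes of the deposited tables, 27 of them type I-like and 10 gamma-like. Mx1 and Mx2 were not analysed here.

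The genes were followed in single cells of the mouse aorta. There were 4 libraries from mice labelled Slc38a2deltaEC, in which the gene for the neutral amino acid transporter SLC38A2 was deleted in endothelial cells, and 3 libraries from Slc38a2flox/flox mice, which carry the floxed gene and served as the controls. Every mouse, control or knockout, had eaten a high-salt diet for 3 weeks, so no library shows these genes on a normal diet. Cells were freed with a mixture of proteases and captured with BD Rhapsody, a microwell method that counts each captured mRNA molecule once by its unique molecular identifier (UMI). The labels used here name no Cre driver, no deleted exons, no strain and no age, and do not say whether each library came from its own animal, so the p-values below reflect library-to-library variation, of which an unknown share is technical. Libraries are called knockout 1 to 4 and flox control 1 to 3 after their names.

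Interferons are secreted proteins that switch on antiviral and immune genes in cells that carry their receptors. Type I interferons, among them interferon beta, signal through Ifnar1 and Ifnar2 to a complex that contains STAT2 and IRF9 and binds the interferon-stimulated response element (ISRE) of its target genes. Interferon gamma, made mainly by T cells and natural killer cells, signals through Ifngr1 and Ifngr2 to genes that carry the gamma-activated site (GAS). The split into type I-like and gamma-like genes is therefore one of emphasis, since many genes answer to both. In the artery wall, endothelial cells are known to answer interferon gamma with guanylate-binding proteins, antigen-presentation genes and chemokines.

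The DNA just upstream of several of these genes holds the letters of both elements. Promoter windows of 250 bases before to 50 bases after the start site were available for 29 of the 39 genes, in 33 windows (RefSeq, GRCm38.p6). Not in that table were Usp18, Oas2, Mx1, Mx2, Gbp4, Dhx58, Ifi27l2a, Zbp1, Parp14 and Rtp4. On either strand, the ISRE core (GAAA, any 2 bases, GAAA) stood in 16 of the 33 windows (48.5%), against 1131 of all 32851 windows (3.44%), and it did so in 11 of 22 type I-like and 5 of 11 gamma-like windows. The GAS letters TTCNNNGAA stood in 9 of the 33 windows (27.3%), against 8.3% of all windows, that is in 5 of 22 type I-like and 4 of 11 gamma-like windows. A match is a description of the letters and was not tied to binding. The stretches below, each with 20 bases on both sides of its matches, belong to genes whose levels carry the results. Capitals mark ISRE matches in all but Irf1, where they mark a GAS match, and Igtp, where the capitals before the lower-case ct are the GAS match and those after it the ISRE match.
Isg15 (chr4:156200855-156200916, minus strand): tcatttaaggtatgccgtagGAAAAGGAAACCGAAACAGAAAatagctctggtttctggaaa
Ifit1 (chr19:34640765-34640833, plus strand): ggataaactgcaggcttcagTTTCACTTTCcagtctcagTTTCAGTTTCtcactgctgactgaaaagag
Ifit3 (chr19:34583353-34583436, plus strand): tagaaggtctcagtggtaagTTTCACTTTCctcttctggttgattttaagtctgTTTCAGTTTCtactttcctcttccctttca
Rsad2 (chr12:26456543-26456592, minus strand): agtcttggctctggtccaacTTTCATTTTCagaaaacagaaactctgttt
Gbp2 (chr3:142620584-142620633, plus strand): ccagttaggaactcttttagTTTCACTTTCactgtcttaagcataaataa
Gbp3 (chr3:142559979-142560034, plus strand): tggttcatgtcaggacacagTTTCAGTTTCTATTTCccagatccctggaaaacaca
Igtp (chr11:58199491-58199551, plus strand): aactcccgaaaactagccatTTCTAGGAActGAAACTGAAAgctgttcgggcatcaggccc
Irf1 (chr11:53769904-53769952, plus strand): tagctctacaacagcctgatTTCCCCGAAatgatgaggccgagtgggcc
Isg15 held 3 overlapping ISRE matches and Gbp3 held 2 overlapping ones. Xaf1, whose endothelial level is described below, held neither element in its window. Several of the genes lie side by side (GRCm38), with Psmb9, Tap1 and Psmb8 on chromosome 17, Ifit2, Ifit3 and Ifit1 on chromosome 19, Gbp7, Gbp3 and Gbp2 on chromosome 3, and Oas2, Oas3 and Oas1a on chromosome 5. Reads of the Ifit, Oas, Gbp and Irgm families and of Ifi27l2a can come from near-identical copies, so the levels of single family members are uncertain.

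The libraries held 22646246 to 73102988 UMIs. Filters left 67477 cell barcodes, and gates on marker genes placed 50628 cells (75.03%) in a type, among them 1601 endothelial cells, 18262 smooth muscle cells, 24768 fibroblasts and 4174 macrophages. The labels give the cell type as goblet cells, but no cell held 3 or more of the 7 goblet markers, whereas Pecam1, an adhesion molecule of endothelium, had a UMI in 94.75% of the gated endothelial cells. Pairs of libraries shared 68 to 218 barcodes, at most 1.79% of the smaller library. Knockout 4 stood apart from the other 6 libraries, with haemoglobin at 1.318% of UMIs against 0.01829% to 0.2705%, T cells at 2.123% of kept cells against 0.198% to 0.419%, 597 endothelial cells against 76 to 277, and 313 smooth muscle cells against 1913 to 4982. Gene levels within a type are CPM, the UMIs of the gene per 1e+06 UMIs of the sum, with the size of the sum scaled by the TMM method. In the endothelial sums, Slc38a2 itself had 204.5, 329.7, 376.6 and 317.6 CPM in knockout 1 to 4, against 443.5, 404.1 and 473.7 CPM in flox control 1 to 3. The groups did not overlap, an order that 3.32% of all genes had, but with the deleted exons not named this level checks nothing about the genotype labels. In smooth muscle cells, fibroblasts and macrophages the groups overlapped. Knockout 1 was the lowest library there too, at 209 CPM in fibroblasts, against 417.2 to 575.7 CPM in the controls.

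Among the 4 main cell types, interferon-stimulated transcripts were at their highest summed levels in macrophages and endothelial cells, and the genes concerned differed between the 2 types. UMIs were summed per library and cell type, and levels are CPM after scaling all sums together with the TMM method. The summed type I-like level was highest in macrophages, at 2368 ± 1501 CPM, against 755.3 ± 211 CPM in endothelial cells, 446 ± 77.67 CPM in fibroblasts and 187.2 ± 77.5 CPM in smooth muscle cells (SD, n = 7 libraries). The macrophage libraries ranged from 1607 to 5743 CPM around a median of 1740 CPM, and the highest was flox control 3. The summed gamma-like level was instead highest in endothelial cells, at 1118 ± 561.1 CPM, against 689 ± 126.8 CPM in fibroblasts, 492.3 ± 120.2 CPM in macrophages and 198.2 ± 80.12 CPM in smooth muscle cells (SD, n = 7 libraries). The endothelial libraries ranged from 737.6 to 2368 CPM around a median of 926.5 CPM, with knockout 4 at the top. Of the 27 type I-like genes, 19 had their highest mean in macrophages, 7 in endothelial cells and 1 in fibroblasts, and of the 10 gamma-like genes 8 had it in endothelial cells and 2 in fibroblasts. Smooth muscle cells had the lowest mean for 26 of the 27 type I-like genes and for all 10 gamma-like genes.

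**Figure D1:**
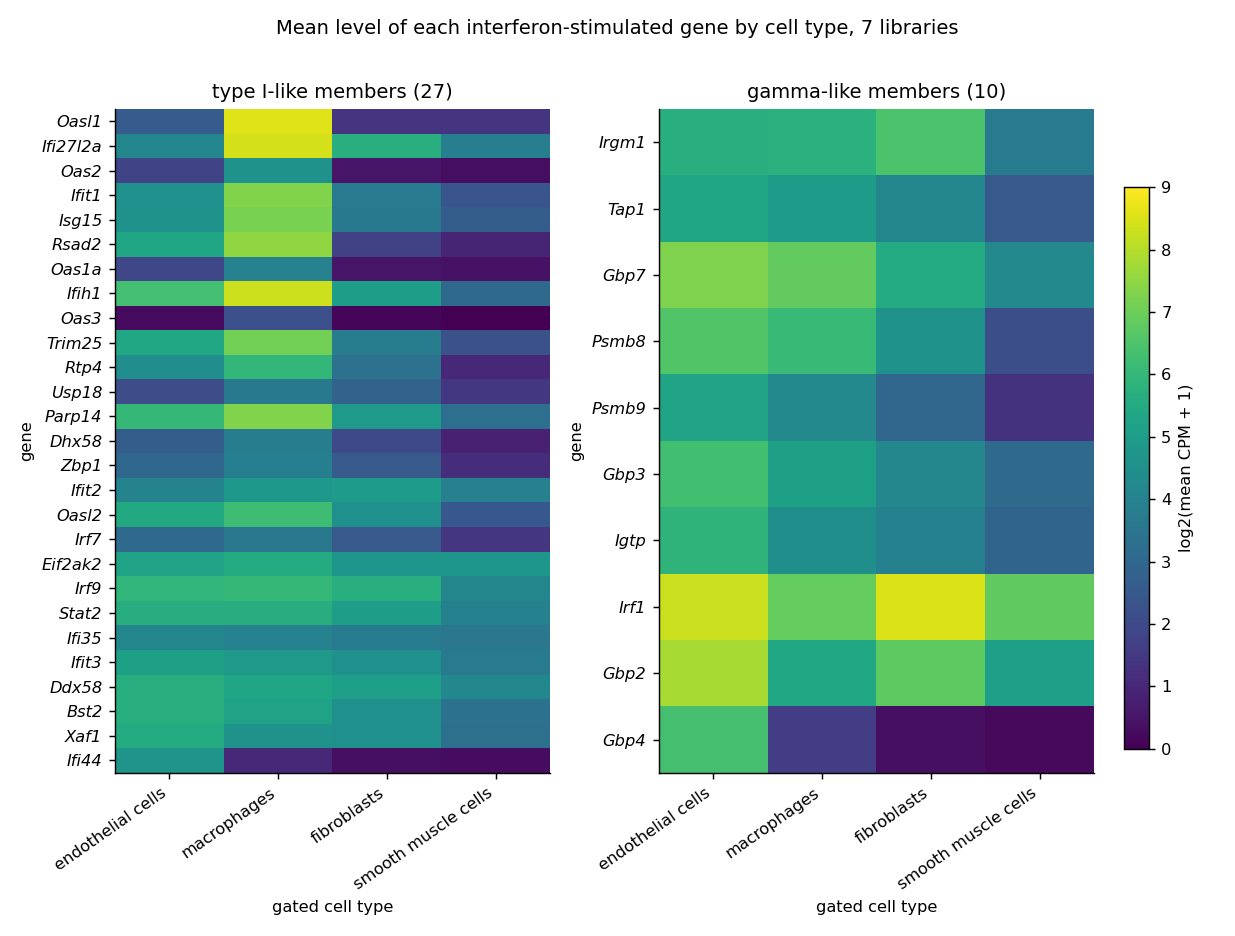
Mean level of each of the 37 measured genes in the 4 cell types, as log2(mean CPM + 1) over 7 libraries, with the 27 type I-like genes on the left and the 10 gamma-like genes on the right, ordered by macrophages minus endothelial cells. Colours are to be compared along a row, between cell types of 1 gene, and smooth muscle cells have the lowest mean in 36 of the 37 rows.

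Set against the 2 other structural cell types of the wall, endothelial cells had more of nearly every one of these transcripts. The test was edgeR's quasi-likelihood test over 12828 genes with the library as a block, and 36 of the genes entered it, 26 type I-like and 10 gamma-like. Oas3, the gene left out, averaged 3.55 ± 2.54 CPM in macrophages and at most 0.195 CPM in the other types. Against the mean of smooth muscle cells and fibroblasts, 33 of the 36 were higher in endothelial cells and 0 lower at an adjusted p under 0.05, while 25.4% of all genes were called higher and 28.5% lower. All 10 gamma-like and 23 of 26 type I-like genes were among them, and the median log2 fold change was 2.03 over the 36 genes and -0.04 over all genes. Ifi27l2a, Ifit2 and Usp18 were the 3 genes not called. Without knockout 4 the count was 29 of 36.

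A few genes were, among the 4 main types, found mainly in endothelial cells. Gbp4, an interferon-induced GTPase, averaged 79.9 ± 61.2 CPM in endothelial cells, against 2.12 ± 2.31 CPM in macrophages, 0.297 ± 0.360 CPM in fibroblasts and 0.165 ± 0.287 CPM in smooth muscle cells (SD, n = 7 libraries). Its lowest endothelial library, flox control 1 at 40.1 CPM, stood above the highest library of any of the other 3 types, knockout 4 macrophages at 6.39 CPM. Ifi44, a type I-like gene, averaged 24.3 ± 17.3 CPM in endothelial cells, against 1.04 ± 0.684 CPM in macrophages, 0.298 ± 0.160 CPM in fibroblasts and 0.226 ± 0.320 CPM in smooth muscle cells. Among genes shared more widely, Gbp2 averaged 225 ± 168 CPM in endothelial cells and 109 ± 28.2 CPM in fibroblasts, and the 2 sets of libraries overlapped (136 to 599.7 CPM and 70.4 to 158 CPM). Psmb8, a subunit of the immunoproteasome, averaged 92.9 ± 53.2 CPM in endothelial cells and 66.4 ± 20.2 CPM in macrophages, with 23.3 ± 5.93 CPM in fibroblasts and 3.53 ± 2.82 CPM in smooth muscle cells.

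Most type I-like genes were highest in macrophages. Against the mean of smooth muscle cells and fibroblasts, 31 of 36 genes were higher in macrophages and 2 lower (edgeR adjusted p under 0.05), with 37.6% of all genes called higher and 43.6% lower. The median log2 fold change was 2.20 over the 36 genes, against -0.10 over all genes, and 3.05 over the 26 type I-like genes alone. The 2 genes lower in macrophages were both gamma-like, Gbp2 at -0.58 (SE 0.20) and Irf1, a transcription factor, at -0.80 (SE 0.17) on the log2 scale. Irf1 was highest in fibroblasts, with 370.5 ± 75.8 CPM in fibroblasts and 309 ± 102 CPM in endothelial cells, whose libraries overlapped, then 115 ± 25.7 CPM in macrophages and 112 ± 51.7 CPM in smooth muscle cells, whose libraries overlapped too.

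The direct comparison of macrophages with endothelial cells split the list by kind. Of the 26 type I-like genes, 15 were higher in macrophages and 4 lower (edgeR adjusted p under 0.05), while of the 10 gamma-like genes 0 were higher and 9 lower. Over all genes, 32.1% were called higher in macrophages and 35% lower. The median log2 fold change was 1.10 for type I-like genes, -1.12 for gamma-like genes and -0.09 for all genes. Without flox control 3, whose macrophages had the most type I-like transcripts, 15 genes were still called higher and 14 lower.

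**Figure D2:**
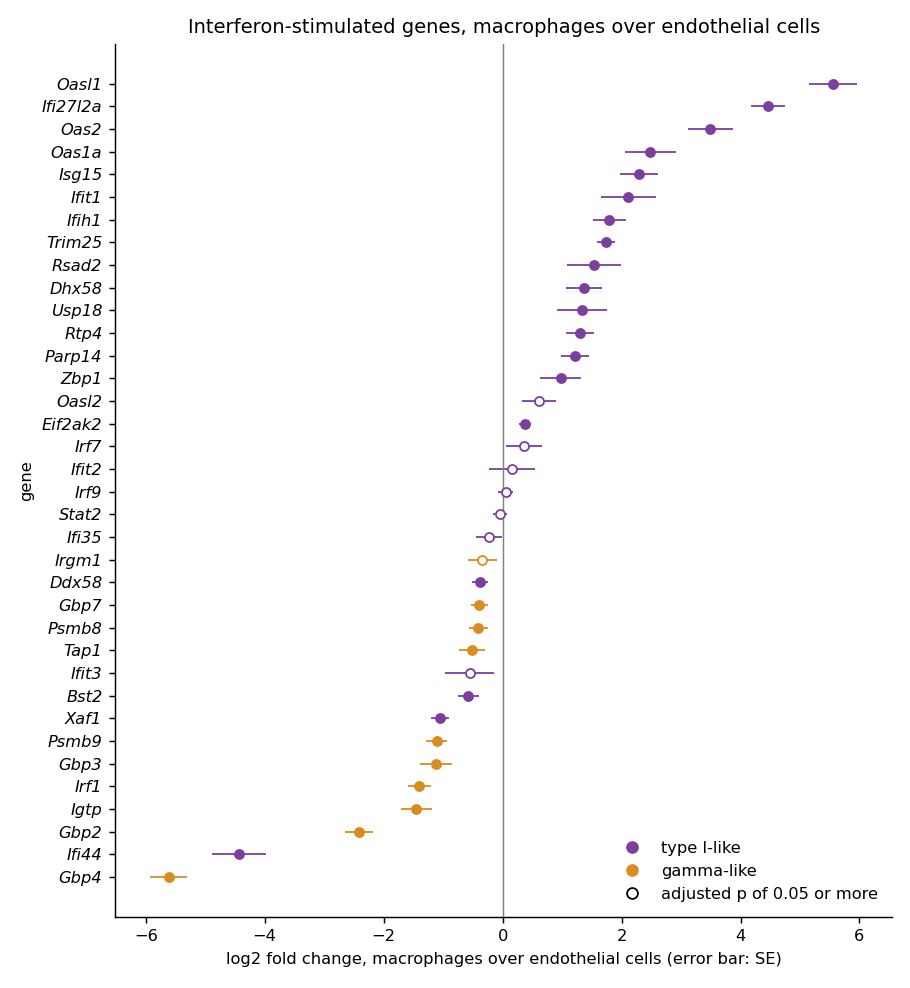
Log2 fold change of macrophages over endothelial cells for the 36 genes tested, with SE bars, from the edgeR fit with the library as a block. Type I-like genes (purple) fill the right side, all 10 gamma-like genes (orange) lie left of 0, and Ifi44 is the type I-like gene farthest to the left.

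The genes highest in macrophages relative to endothelium were Oasl1, an oligoadenylate-synthase-like protein known in mice to restrain Irf7 translation, at 5.55 (SE 0.41) on the log2 scale, Ifi27l2a at 4.47 (SE 0.29) and the oligoadenylate synthase Oas2 at 3.49 (SE 0.38). Oasl1 averaged 381 ± 354 CPM in macrophages, with a median library at 214 CPM, against 5.19 ± 4.60 CPM in endothelial cells. Isg15, a ubiquitin-like modifier, was higher by 2.30 (SE 0.32) and Ifit1, which binds foreign RNA, by 2.11 (SE 0.47). Isg15 averaged 145 ± 141 CPM in macrophages with a median library at 88.2 CPM, against 23.3 ± 11.1 CPM in endothelial cells, and its lowest macrophage library at 69.4 CPM was above its highest endothelial library at 43.2 CPM. The 4 type I-like genes lower in macrophages were Ifi44 at -4.44 (SE 0.45), Xaf1, a pro-apoptotic antagonist of XIAP, at -1.05 (SE 0.15), the virion tether Bst2 at -0.57 (SE 0.17) and the RNA sensor Ddx58 (RIG-I) at -0.38 (SE 0.13). The 7 type I-like genes not called included Stat2 at -0.05 (SE 0.11) and Irf9 at 0.05 (SE 0.13), both parts of the ISRE-binding complex.

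Fibroblasts had more of these transcripts than smooth muscle cells. Of the 36 genes, 31 were higher in fibroblasts and 0 lower (edgeR adjusted p under 0.05), with 36.8% of all genes called higher and 37.8% lower, and the median log2 fold change was 1.79, against -0.02 over all genes. The 5 genes not called were Ifi44, Gbp4, Oasl1, Ifi35 and Eif2ak2. Eif2ak2, the RNA-activated kinase PKR, averaged 25.4 ± 2.73 CPM in fibroblasts and 25.7 ± 2.64 CPM in smooth muscle cells (log2 fold change -0.01, SE 0.07) and did not pass the test.

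Smaller populations had their own patterns, given as CPM of all UMIs of the gated cells in libraries with at least 20 such cells. T cells, in 6 libraries, had a summed gamma-like level of 694 ± 163 CPM and a summed type I-like level of 511 ± 119 CPM (SD), with knockout 4 highest in both. Gbp4 was found in T cells too, at 49.7 ± 33.4 CPM. Neutrophils could be read in 2 libraries only, where the summed type I-like level was 2006 CPM in knockout 4 and 1009 CPM in knockout 1. Mast cells, in 5 libraries, had 525 ± 127 CPM of type I-like and 365 ± 39.5 CPM of gamma-like transcripts, and B cells, in 2 libraries, had 971 and 1050.4 CPM of type I-like transcripts. On the same scale endothelial cells averaged 865 CPM of type I-like transcripts, below the values of both neutrophil and both B-cell libraries.

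The machinery upstream of these genes was also spread unevenly. Among the receptors, Ifngr1, the ligand-binding chain of the interferon gamma receptor, averaged 219 ± 55.7 CPM in endothelial cells, against 98.1 ± 30.8 CPM in macrophages, 86.6 ± 16.8 CPM in fibroblasts and 32.4 ± 5.01 CPM in smooth muscle cells, and it was lower in macrophages than in endothelial cells by 1.15 on the log2 scale (SE 0.15). The other 4 of 5 receptor chains tested (Ifnar1, Ifnar2, Ifngr2 and Il10rb) were higher in macrophages than in endothelial cells. Ifnar1 averaged 57.3 ± 13.3 CPM in macrophages, against 23.3 ± 7.62 CPM in endothelial cells. Of 13 sensors and adaptors tested, 9 were higher and 2 lower in macrophages than in endothelial cells, and Tlr7, an endosomal RNA sensor, averaged 161 ± 28.3 CPM in macrophages, against 1.26 ± 1.66 CPM in endothelial cells. Of 19 further induced genes, 6 were higher and 7 lower in macrophages than in endothelial cells. Over all genes, 32.1% were called higher and 35% lower in that comparison, about the share seen in the further induced genes. The chemokine gene Cxcl10 averaged 694 ± 772 CPM in macrophages, against 32.6 ± 34.4 CPM in endothelial cells, whereas its neighbour Cxcl9 averaged 2.56 ± 2.08 CPM in macrophages, against 59.7 ± 51.7 CPM in endothelial cells. Of the 4 brakes tested, 2 were higher and 1 lower.

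The interferon genes themselves were rare. Ifnb1, the gene of interferon beta, had 423 UMIs in all kept cells, of which 76.36% lay in gated macrophages. Ifng, the gene of interferon gamma, had 91 UMIs, of which 83.52% lay in gated T cells, and 46 of those 76 T-cell UMIs came from knockout 4. Only 6 Ifnb1 UMIs lay in the 24768 fibroblasts and 2 in the 18262 smooth muscle cells. In endothelial cells there were 10 Ifnb1 UMIs, all in 3 cells of knockout 4. Ifng was not found in any endothelial or smooth muscle cell.

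The genotype comparison asked whether endothelial loss of Slc38a2 went with other levels of these genes in the 4 main types of the wall. None of them passed the test. In endothelial cells, 29 of the 37 genes passed the filter on low counts and 0 were called by edgeR (adjusted p under 0.05; 0% of 8204 genes called), by DESeq2 0 as well. The 8 genes not tested there, each too low, were Oas1a, Oas2, Oas3, Oasl1, Irf7, Dhx58, Usp18 and Zbp1. Unadjusted, 3 genes had a p under 0.05, all higher in knockout libraries, against 205 genes higher and 227 lower over the whole table. The smallest adjusted p of any of them was 0.848 (edgeR). Of the 29 genes, 24 had a positive log2 fold change, against 48.3% of all genes, and the median was 0.64, against -0.01 over all genes, with 0.41 for type I-like and 0.88 for gamma-like genes. Without knockout 4 the median was 0.06 and 14 of 27 genes were positive.

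Xaf1 had the smallest p in endothelial cells. It had 67.0, 58.6, 62.0 and 83.1 CPM in knockout 1 to 4, against 27.5, 45.7 and 36.2 CPM in flox control 1 to 3 (log2 fold change 0.88, SE 0.25, edgeR adjusted p = 0.848). Every knockout library was above every control library. Xaf1 and Psmb9 were the 2 genes of the 29 with that order, which 3.39% of all genes had, and 0 of the 29 had the opposite order, which 3.32% of all genes had. Psmb9, another immunoproteasome subunit, had 38.8, 36.9, 34.5 and 104 CPM in the knockout libraries, against 31.2, 27.7 and 32.5 CPM in the controls. For Xaf1 the 3 knockout libraries other than knockout 4 were close to one another and above the controls, whereas for Psmb9 they lay just above the controls and knockout 4 stood far above. Rtp4 had 28.2, 33.6, 17.3 and 40.7 CPM in the knockout libraries, against 11, 19.4 and 18.1 CPM in the controls, and Ifit3 had 38.8, 34.7, 39.2 and 83.1 CPM, against 11, 33.2 and 36.2 CPM. Both overlapped between the groups.

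Knockout 4 held the highest value of most endothelial genes. Of the 29 genes, 21 had their highest value in knockout 4, against 15.2% of all genes, and of the 10 gamma-like genes all but Irf1 did. Against the median of the other 6 libraries, on the scale of log2(CPM + 1), knockout 4 was above it for all 10 gamma-like genes and at least 2-fold above it for 9, with a median of 1.69, while 1.93% of all genes were at least 2-fold above. For the 19 type I-like genes, 15 were above and 9 at least 2-fold above, with a median of 0.87. Knockout 1 was above the median of the other 6 libraries for 17 of the 19 type I-like genes, but at least 2-fold above for only 4, with a median of 0.36, and 4.55% of all genes were at least 2-fold above there. Of the 10 gamma-like genes it was above for 4 and at least 2-fold above for 0. Knockout 4 was singled out after its values were seen.

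The guanylate-binding proteins, GTPases that attack intracellular pathogens, showed this most plainly. Gbp2 had 166, 167, 202 and 716 CPM in knockout 1 to 4, against 170.4, 179 and 271 CPM in flox control 1 to 3. Gbp4 had 70.5, 67.2, 76.9 and 258 CPM in the knockout libraries, against 47.6, 84.4 and 57.9 CPM in the controls. Gbp7 had 127, 148, 151 and 379 CPM in the knockout libraries, against 112, 176 and 163 CPM in the controls. In each of the 3 genes, knockout 1 to 3 lay among or near the controls and knockout 4 stood alone. Antigen-processing genes followed, with Psmb8 at 106, 87.9, 94.9 and 248 CPM in the knockout libraries, against 49.5, 77.5 and 108 CPM in the controls, and Igtp, an immunity-related GTPase, had 49.4, 40.1, 38.4 and 214 CPM, against 20.2, 72.0 and 43.4 CPM. Tap1, which carries peptides to MHC class I, had 35.3, 33.6, 43.9 and 121 CPM in the knockout libraries, against 29.3, 36.0 and 25.3 CPM in the controls. Irf1 did not share the pattern, with 243, 316, 410.4 and 368 CPM in the knockout libraries, against 583, 231 and 409 CPM in the controls, where flox control 1 was highest.

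**Figure D3:**
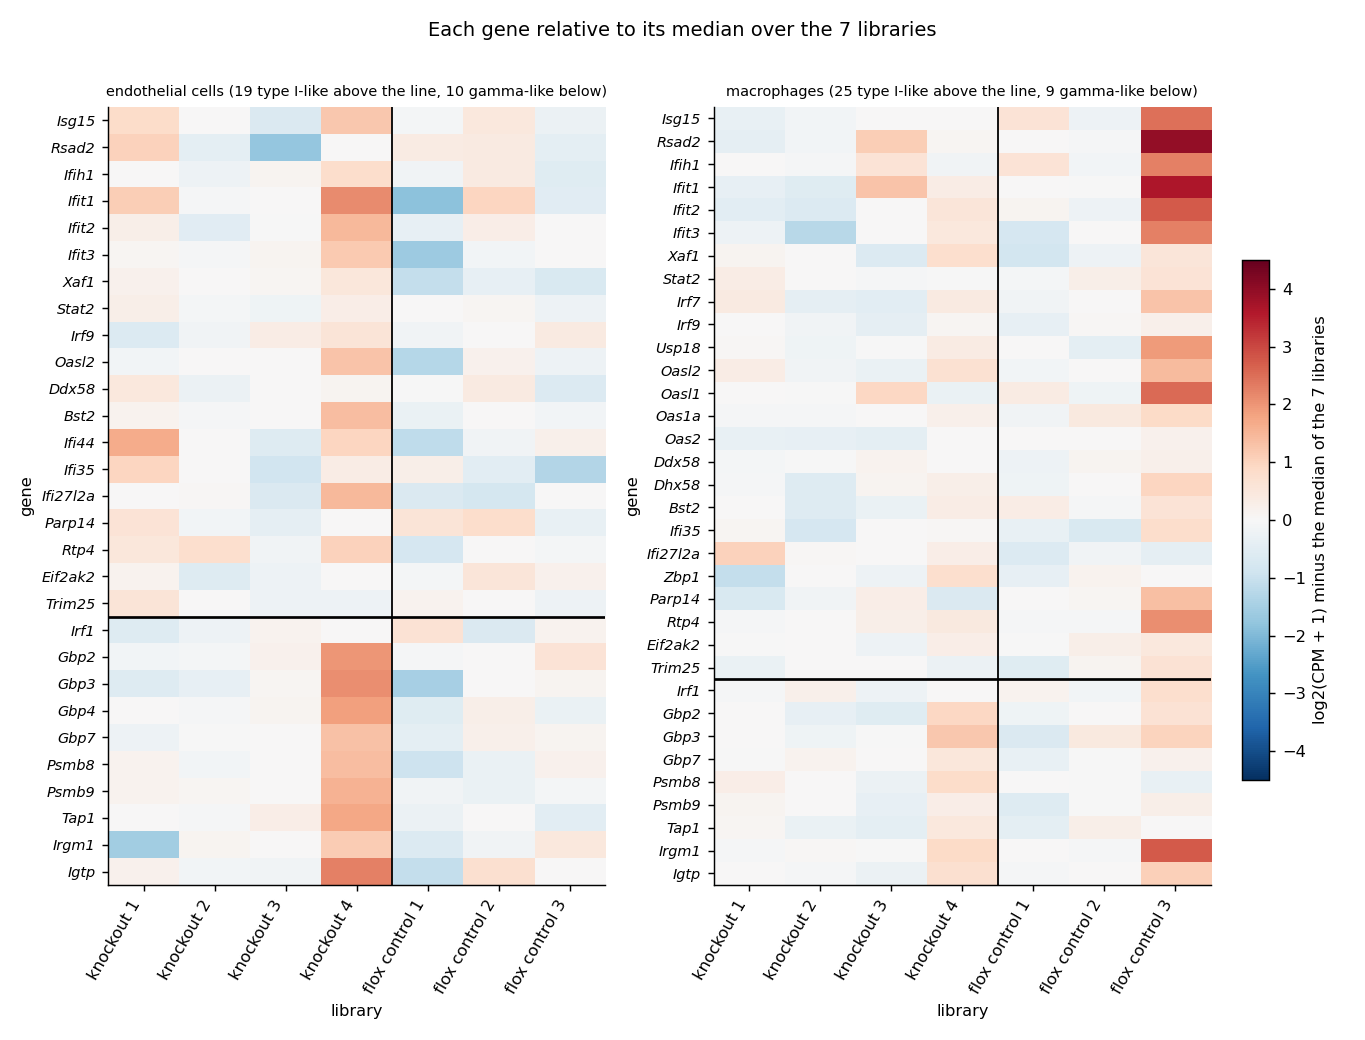
Level of each tested gene in each library as log2(CPM + 1) minus its median over the 7 libraries, for endothelial cells (left, 29 genes) and macrophages (right, 34 genes), with knockout 1 to 4 before flox control 1 to 3. The knockout 4 column is red in most endothelial rows and the flox control 3 column in most macrophage rows.

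Type I-like genes in endothelial cells were less uniform across libraries. Isg15 had 38.8, 21.7, 13.3 and 51.6 CPM in the knockout libraries, against 20.2, 30.4 and 18.1 CPM in the controls, and Bst2 had 52.9, 45.6, 47.9 and 126 CPM, against 38.5, 48.4 and 43.4 CPM. Ifi27l2a had 17.6, 18.4, 10.99 and 49.9 CPM in the knockout libraries, against 11, 9.69 and 18.1 CPM in the controls. All 3 had their highest value in knockout 4 and otherwise overlapped. Rsad2, the antiviral enzyme viperin, was highest in knockout 1 instead, with 91.7, 32.5, 12.6 and 44.0 CPM, against 56.8, 58.1 and 32.5 CPM in the controls. The knockout 1 values rest on 76 cells and 279119 UMIs, those of flox control 3 on 80 cells and 294869 UMIs and those of flox control 1 on 147 cells and 535028 UMIs. Low CPM values in these libraries therefore rest on few UMIs.

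Cxcl9 and B2m, induced genes outside the list, also had their highest endothelial value in knockout 4. Cxcl9 had 59.9, 58.6, 47.9 and 205 CPM in the knockout libraries, against 47.6, 65.0 and 10.8 CPM in the controls. The 378 Cxcl9 UMIs of knockout 4 lay in 33 of its 597 endothelial cells. A Cxcl9 UMI was found in 8 of 76, 22 of 233 and 15 of 277 cells in knockout 1 to 3. In flox control 1 to 3 it was found in 10 of 147, 11 of 191 and 2 of 80 cells. As a share of cells, knockout 4 lay below knockout 1 and 2 and flox control 1 and 2. It lay above knockout 3 and flox control 3. B2m, the light chain of MHC class I, had 3357, 2993, 2821 and 5965 CPM in the knockout libraries, against 1682, 2152 and 2625 CPM in the controls (log2 fold change 0.82, SE 0.30, edgeR adjusted p = 0.848). Like B2m, the class I heavy chain genes H2-K1 and H2-D1 had every knockout library above every control library, at the same adjusted p. That order was found in 3.39% of all genes. Of 16 further induced genes tested in endothelial cells, 13 had a positive fold change, against 48.3% of all genes, and 0 were called, with a median of 0.39.

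Per cell, knockout 4 had the largest share of endothelial cells with several gamma-like UMIs. After thinning every cell to 1000 UMIs, 34.2% of its 497 deep enough cells held 3 or more gamma-like UMIs (95% Wilson interval 30.2% to 38.5%, which covers counting error only). The share was 6.45%, 9.71% and 13.6% in knockout 1 to 3 and 10.6%, 17.0% and 19.4% in flox control 1 to 3. The median was 1 gamma-like UMI per thinned cell in every library, and the libraries differed at the upper end. The 90th percentile was 7 UMIs in knockout 4, against 2, 2 and 3 in knockout 1 to 3 and 2.7, 3 and 3.4 in flox control 1 to 3. The mean was 2.48 UMIs in knockout 4, against 0.919 to 1.15 in knockout 1 to 3 and 1.08 to 1.27 in the controls. Type I-like genes showed no such gap, since 15.1% of knockout 4 cells held 3 or more of their UMIs, against 16.1%, 8.25% and 3.83% in knockout 1 to 3 and 5.77%, 10.3% and 7.46% in flox control 1 to 3. Thinning left out 100 endothelial cells of knockout 4, 14 to 42 in knockout 1 to 3 and 13 to 43 in the controls. At least 1 gamma-like UMI was found in 72.6% of thinned and 87.9% of unthinned cells of knockout 4, against 53.4% to 57.5% and 73.7% to 82.0% in knockout 1 to 3 and 55.2% to 63.5% and 71.2% to 74.9% in the controls.

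Other features of knockout 4 are given beside these values, and not all of them set it apart. Its endothelial sum held 248.7 CPM of the 12 macrophage markers, all 12 of them present, against 20.35 to 114 CPM in the other 6 libraries, and 12.37 CPM of the 8 T-cell markers, against 0 to 10.17 CPM. Of those 8 T-cell markers, 5 had a UMI there, while Cd3d, Cd3g and Cd28 had 0 UMIs over all 1601 endothelial cells. Its median mitochondrial share was 9.846%, against 4.701% to 8.467%, and its haemoglobin markers at 2810 CPM lay inside the range of the others. Of its 153 T cells, 20 held an Ifng UMI, against 3 of 29, 5 of 34 and 0 of 32 in knockout 1 to 3 and 2 of 23, 3 of 47 and 0 of 18 in flox control 1 to 3. As a share of T cells this was 13.1% in knockout 4, between knockout 1 at 10.3% and knockout 2 at 14.7%. Its T cells were thus more numerous but not the most often Ifng-positive. Its endothelial cells were also the only ones with Ifnb1 UMIs, in 3 of 597 cells. The part that these features had in the result was not tested.

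**Figure D4:**
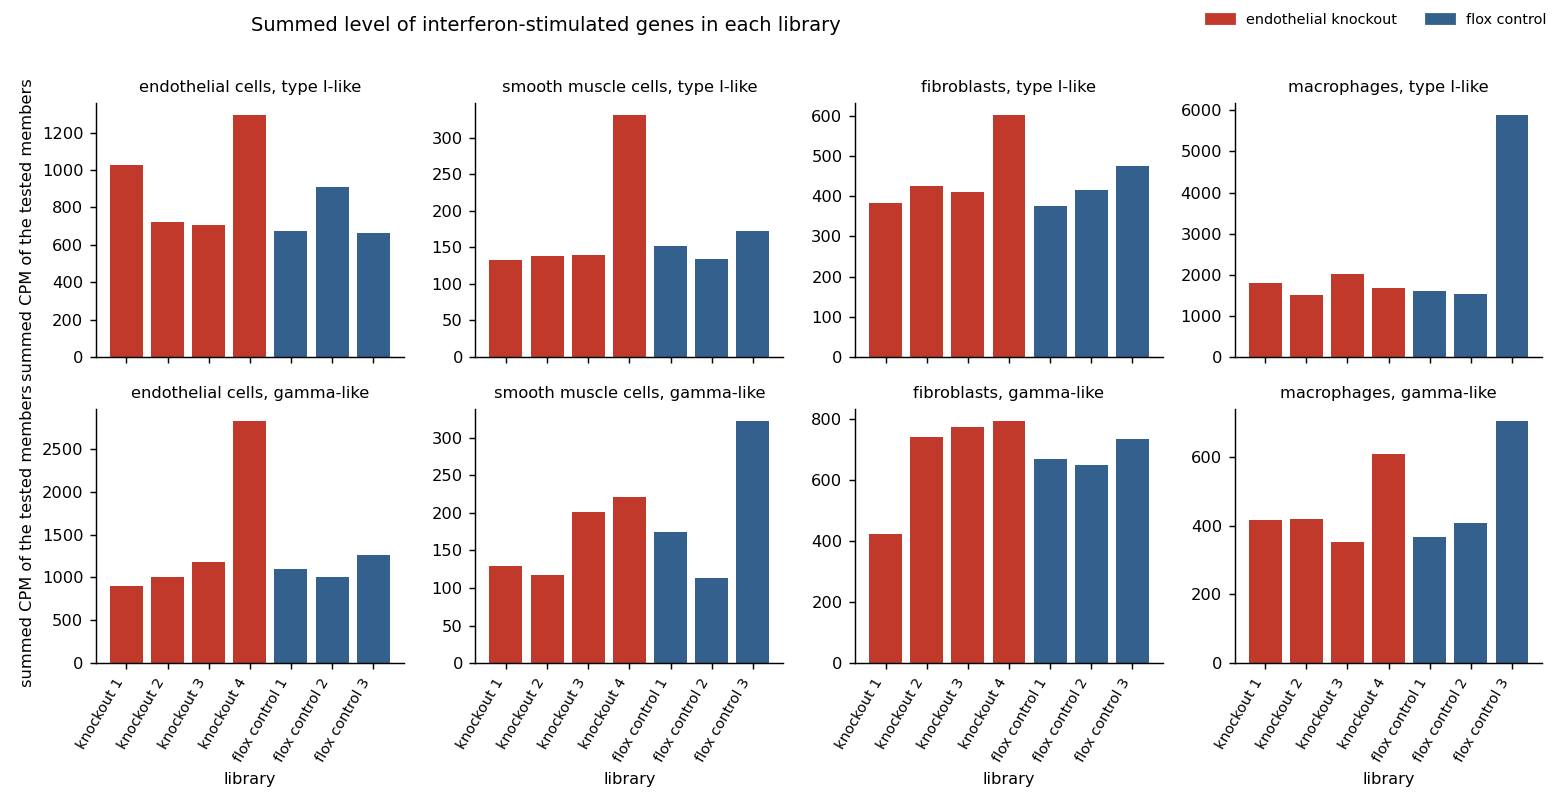
Summed CPM of the tested genes in each library and cell type, with type I-like genes in the upper and gamma-like genes in the lower row, knockout libraries in red left of the flox controls in blue, and each panel on its own axis. Knockout 4 is highest in endothelial cells in both rows, and flox control 3 is highest in macrophages in both rows.

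Knockout 4 was also high in smooth muscle cells. There 31 genes were tested and 0 were called by edgeR (0% of 12780 genes called) or by DESeq2, with 0 at an unadjusted p under 0.05, against 243 genes higher and 364 lower over the whole table. Of the 31 genes, 13 had a positive fold change, against 48.8% of all genes, and the median was -0.07. No gene had every knockout library above or every one below the controls, orders that 2.97% and 2.69% of all genes had. Summed type I-like levels were 133, 138, 139.7 and 332 CPM in knockout 1 to 4, against 152, 134 and 172 CPM in flox control 1 to 3, and summed gamma-like levels were 129.6, 117, 201 and 221 CPM, against 175, 114 and 322 CPM. The summed type I-like level was highest in knockout 4 and the summed gamma-like level in flox control 3. Gene by gene, knockout 4 held the highest value for 26 of the 31 genes, against 25.3% of all genes, and was at least 2-fold above the median of the other 6 libraries for 17, 12 of 22 type I-like and 5 of 9 gamma-like, against 2.9% of all genes. Flox control 3 was at least 2-fold above for 7, 2 type I-like and 5 gamma-like, against 0.829% of all genes. Knockout 4 and flox control 3 were thus each at least 2-fold above the median of the other 6 libraries for 5 of the 9 gamma-like genes, not necessarily the same genes. Per cell they differed. After thinning to 1000 UMIs, 10.3% of knockout 4 cells and 18.6% of flox control 3 cells held a gamma-like UMI, against 8.815% to 14.8% in the other libraries. The highest cell held 15 gamma-like UMIs in each of these libraries. A type I-like UMI was found in 18.9% of knockout 4 cells, against 11.5% to 14.9% in the other libraries. The median fold change was -0.30 without knockout 4 and 0.13 without flox control 3. With the replicate number as a block, which gives knockout 4 no weight, it was -0.30 too, with 4 of 31 genes higher.

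Ifit3 had 1.96, 3.5, 8.66 and 48.5 CPM in smooth muscle cells of knockout 1 to 4, against 3.53, 2.76 and 9.08 CPM in the controls. Isg15 had 1.71, 1.79, 1.96 and 19.4 CPM, against 2.38, 2.76 and 4.97 CPM. In both, knockout 4 was the single high library. Gbp2 had 18.3, 17.8, 16.6 and 49.2 CPM in the knockout libraries, against 25.7, 20.04 and 62.5 CPM in the controls, with knockout 4 and flox control 3 both high (log2 fold change -0.69, SE 0.45, edgeR adjusted p = 0.925, and from -1.01 to -0.07 with single libraries left out). Irgm1 had 6.60, 9.04, 7.44 and 17.9 CPM, against 10.05, 8.19 and 20.6 CPM, and Igtp had 3.30, 3.34, 2.92 and 15.7 CPM, against 2.92, 3.56 and 10.6 CPM. Irf1 varied another way, with 82.0, 63.2, 152 and 69.4 CPM, against 112, 60.1 and 181 CPM, and was highest in knockout 3 and flox control 3. Ddx58 had the smallest p, with 15.0, 13.7, 13.8 and 16.4 CPM in the knockout libraries, against 18.2, 14.5 and 20.7 CPM in the controls (log2 fold change -0.29, SE 0.15, edgeR adjusted p = 0.925), and Eif2ak2 ranged from 21.2 to 28.3 CPM. Bst2, Xaf1, Ifi27l2a, Usp18, Irf7 and Psmb8 each had their highest value in knockout 4. The smooth muscle values of knockout 4 rest on 313 cells and 1398063 UMIs, against 6106598 to 28487340 UMIs in the other libraries. Its values of a few CPM therefore rest on few UMIs. Beside these values, the smooth muscle sum of knockout 4 held 34.3 CPM of macrophage markers, against 12.7 to 107.8 CPM in the other libraries, and 143.8 CPM of endothelial markers, against 152.9 to 220.4 CPM. It held the most erythroid markers, at 715.3 CPM, against 23.55 to 560.5 CPM with flox control 3 next, the most mast-cell markers, at 36.48 CPM, against 7.771 to 27.63 CPM, and the most T-cell markers, at 2.861 CPM, against 0.4758 to 1.146 CPM. The part these had in the result was not tested.

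In fibroblasts no gene passed the test either. Of 34 genes tested, 0 were called by edgeR (0% of 14643 genes called) or by DESeq2, 25 had a positive fold change, against 50.1% of all genes, and the median was 0.06. Without knockout 4 the median was -0.07 and 12 of 34 genes were positive, and without flox control 1 it was -0.01 and 15 were positive. Unadjusted, 1 gene had a p under 0.05, Xaf1, against 318 genes higher and 313 lower over the whole table. Xaf1 had 21.7, 24.3, 21.3 and 32.9 CPM in the knockout libraries, against 13.6, 15.9 and 23.2 CPM in the controls (log2 fold change 0.53, SE 0.21, edgeR adjusted p = 0.961), and flox control 3 overlapped the knockout libraries. No gene of the 34 had groups without overlap, an order that 3.13% of all genes had upward and 2.4% downward. Knockout 4 held the highest value for 21 genes, against 20.2% of all genes, and was above the median of the other libraries for 33 of 34, but at least 2-fold above for only 3, against 1.1% of all genes. Ifi27l2a, with 39.8, 50.8, 22.9 and 120.1 CPM, against 22.3, 34.9 and 55.0 CPM in the controls, and Usp18, which removes ISG15 from proteins and damps type I signalling, with 4.43, 6.40, 7.32 and 11.2 CPM, against 2.90, 3.90 and 7.27 CPM, had their highest value in knockout 4. Gbp7 had 46.9, 45.7, 45.7 and 49.1 CPM in the knockout libraries, against 39.8, 41.1 and 45.8 CPM in the controls. Knockout 1 was the low library for Irf1, with 211, 439.5, 387 and 406 CPM, against 411, 378 and 337 CPM, and for Irgm1, with 31.3, 85.4, 104 and 102 CPM, against 58.7, 69.3 and 143 CPM. Gbp2 had 69.5, 100.3, 156 and 126 CPM, against 96.9, 90.9 and 116 CPM. Isg15 ranged from 6.89 to 19.7 CPM, Irf7 from 3.83 to 6.16 CPM, Bst2 from 14.6 to 26.8 CPM and Psmb8 from 17.6 to 35.7 CPM. Ifit3 ranged from 13.1 to 32.4 CPM and Igtp from 11.5 to 20.1 CPM, both highest in knockout 4. The fibroblast sum of knockout 4 also held the most erythroid markers, at 1901 CPM, against 43.67 to 390.3 CPM in the other 6 libraries, mast-cell markers, at 37.95 CPM, against 1.715 to 14.6 CPM, and T-cell markers, at 3.54 CPM, against 0.6525 to 1.95 CPM. Their part in the result was not tested.

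In macrophages the library that stood out was a control. Of 34 genes tested, 0 were called by edgeR (0% of 10561 genes called) or by DESeq2, 11 had a positive and 23 a negative fold change, with 49.1% of all genes positive, and the median was -0.25, with -0.32 for type I-like and 0.03 for gamma-like genes. Unadjusted, 1 gene was higher and 5 were lower in knockout libraries at a p under 0.05, against 350 and 431 over the whole table, and the smallest adjusted p was 0.614 (edgeR). Flox control 3 held the highest value for 25 of the 34 genes, against 25.5% of all genes. Against the median of the other 6 libraries, its macrophages were above for 24 of 25 type I-like genes and at least 2-fold above for 12, with a median of 0.97 on the log2(CPM + 1) scale, and at least 2-fold above for 15 of all 34 genes, against 5.31% of all genes. Without flox control 3 the median fold change was 0.10 and 24 of 35 genes were positive. Without the filter on low counts, edgeR called 4 genes lower in knockout libraries (Isg15, Rsad2, Ifit1 and Ifih1), all of which were highest in flox control 3.

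Rsad2 had 42.1, 52.3, 122.7 and 60.5 CPM in macrophages of knockout 1 to 4, against 56.4, 54.6 and 886 CPM in flox control 1 to 3 (log2 fold change -2.16, SE 0.84, edgeR adjusted p = 0.668, and 0.34 without flox control 3). Isg15 had 67.2, 76.6, 84.3 and 85.2 CPM, against 131, 72.3 and 472 CPM (log2 fold change -1.44, SE 0.48, edgeR adjusted p = 0.614, and -0.36 without flox control 3). Oasl1 had 204, 199.9, 391 and 165 CPM, against 263, 179 and 1191 CPM. In each, flox control 3 stood alone and the other 2 controls lay among the knockout libraries, except that flox control 1 was above all knockout libraries for Isg15. Ifih1, the RNA sensor MDA5, had 185, 180.0, 287 and 166 CPM in the knockout libraries, against 287, 168 and 899 CPM in the controls, and Ifit1 had 42.1, 36.7, 132 and 68.2 CPM, against 54.1, 53.5 and 689 CPM. Ifit3 had 16.1, 7.51, 19.1 and 26.6 CPM, against 10.95, 19.2 and 96.0 CPM. Usp18 had 8.04, 6.64, 7.62 and 10.4 CPM, against 7.73, 5.49 and 32.0 CPM, and Irf7, the factor that amplifies type I interferon, had 11.8, 6.36, 5.95 and 11.9 CPM, against 7.73, 8.69 and 22.6 CPM. Knockout 3 was the next library for Rsad2, Ifit1 and Oasl1 but not for Ifit3, Usp18 or Irf7.

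Gamma-like genes were divided in macrophages, with 6 of the 9 tested highest in knockout 4 and 3 highest in flox control 3, against 14.8% and 25.5% of all genes. Psmb8 had 71.5, 57.5, 48.1 and 103 CPM in macrophages of knockout 1 to 4, against 58.6, 56.9 and 45.2 CPM in the controls, so knockout 4 was highest and flox control 3 lowest. Gbp2 had 34.5, 26.3, 23.3 and 65.5 CPM, against 30.0, 34.3 and 54.6 CPM, and was highest in knockout 4. Irf1 had 95.6, 118, 84.3 and 99.8 CPM, against 111, 91.2 and 171 CPM, and Igtp had 17.0, 16.2, 13.8 and 28.1 CPM, against 16.1, 16.7 and 35.8 CPM. The type I-like gene Xaf1 had 23.7, 21.7, 13.8 and 37.4 CPM, against 11.9, 18.5 and 32.0 CPM, and was highest in knockout 4. Bst2, also type I-like, had 31.2, 20.8, 25.5 and 39.3 CPM, against 39.6, 30.0 and 48.9 CPM. Gbp4 was too low to be tested in macrophages, smooth muscle cells or fibroblasts. Irgm1 stood out in flox control 3, with 25.1, 26.9, 25.5 and 48.2 CPM in the knockout libraries, against 26.1, 25.4 and 184 CPM. The macrophage sum of knockout 4 held more erythroid markers than the others, at 5375 CPM, against 4.403 to 675.3 CPM, more endothelial markers, at 123.6 CPM, against 27.9 to 66.45 CPM, and more mast-cell markers, at 53.85 CPM, against 3.633 to 15.07 CPM. Their part in the result was not tested.

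Ifi27l2a was the macrophage gene with the smallest p. It had 619, 315, 302 and 371 CPM in knockout 1 to 4, against 195, 270.5 and 226 CPM in flox control 1 to 3 (log2 fold change 0.80, SE 0.26, edgeR adjusted p = 0.614). Every knockout library was above every control library, an order that 5.21% of all genes had, and Oas2 was the 1 gene with the opposite order, which 3.8% of all genes had. Oas2 had 18.9, 18.8, 17.6 and 24.3 CPM, against 24.5, 24.7 and 28.2 CPM, a gap between knockout 4 and flox control 1 that is smaller than the spread within either group.

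Flox control 3 also had the largest share of macrophages with an interferon beta transcript. An Ifnb1 UMI was found in 28 of its 163 macrophages (17.2%, 95% Wilson interval 12.2% to 23.7%), against 2.33%, 2.03%, 4.16% and 2.90% of macrophages in knockout 1 to 4 and 1.75% and 1.30% in flox control 1 and 2. Counted as UMIs, knockout 3 had 82 in its 746 macrophages and flox control 3 had 78 in its 163. As a measure of background from free RNA, fibroblasts had an Ifnb1 UMI in 0% to 0.134% of cells, at a median depth of 4357 to 7409 UMIs against 3195 to 5424 UMIs in macrophages. Cxcl10 had 388, 448, 513 and 210.5 CPM in macrophages of knockout 1 to 4, against 478, 239 and 2487 CPM in flox control 1 to 3, and 68.7% of flox control 3 macrophages held a Cxcl10 UMI, against 20.9% to 35.1% in the other 6 libraries. After thinning to 1000 UMIs, 53.9% of flox control 3 macrophages held 3 or more type I-like UMIs (95% Wilson interval 46.0% to 61.6%, 154 cells), against 28.3%, 17.5%, 27.0% and 17.8% in knockout 1 to 4 and 19.4% and 21.3% in flox control 1 and 2. The interval of flox control 3 lay above those of the other libraries.

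**Figure D5:**
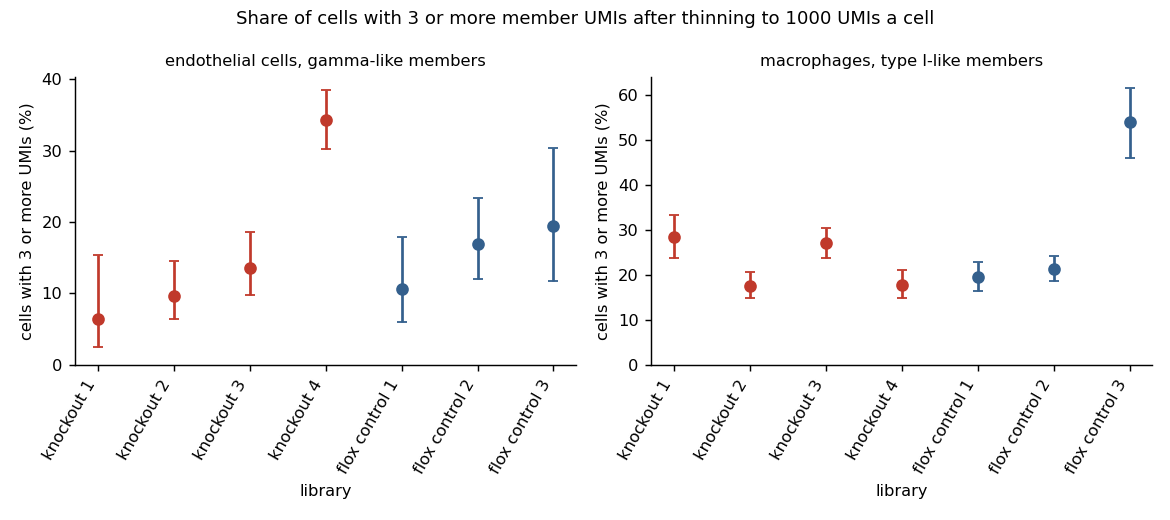
Share of cells with 3 or more UMIs of gamma-like genes in endothelial cells (left) and of type I-like genes in macrophages (right) after every cell was thinned to 1000 UMIs, one point per library with its 95% Wilson interval, knockout libraries in red and flox controls in blue. Knockout 4 at 34.2% on the left and flox control 3 at 53.9% on the right are the points whose intervals lie above those of the other libraries, but for flox control 3 on the left, whose wide interval reaches 30.4%.

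The cells behind the flox control 3 values were few and shallow. That library had 163 macrophages with a median of 3195 UMIs, against 386 to 847 macrophages and 3780 to 5424 UMIs in the other 6 libraries. Its median mitochondrial share of 5.17% lay inside the range of the others (4.169% to 6.771%), its macrophage markers summed to 13270 CPM, against 16040 to 18470 CPM, its neutrophil markers to 75.5 CPM, the lowest of the 7 libraries, and its endothelial markers to 27.9 CPM, also the lowest. The part that depth or cell number had in the result was not tested.

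The effect of genotype was then compared between cell types within the libraries. For endothelial cells minus smooth muscle cells 0 of 32 genes were called, for endothelial cells minus fibroblasts 0 of 36 and for endothelial cells minus macrophages 0 of 36 (edgeR interaction test; 0%, 0% and 0% of 11013, 13325 and 11267 genes called; DESeq2 also called 0 in each). At an unadjusted p under 0.05 there were 3, 1 and 5 of the genes, against 362, 495 and 358 genes over the whole tables. The median difference was 0.36, 0.31 and 0.56 on the log2 scale, against 0.02 to 0.03 over all genes. Without knockout 4 it was 0.52, 0.07 and 0.30, and without flox control 3 it was 0.09, 0.23 and 0.36. Endothelial cells and macrophages come from the same libraries here, so a library that is higher in one type than in another enters this difference. Against the median of the other 6 libraries, on the log2(CPM + 1) scale, knockout 4 had a median of 1.21 in endothelial cells and 1.07 in smooth muscle cells. It had 0.45 in fibroblasts and 0.34 in macrophages. Flox control 3 had -0.15 in endothelial cells, 0.46 in smooth muscle cells, 0.22 in fibroblasts and 0.92 in macrophages.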

How the data were processed

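Single cells of aorta from 4 Slc38a2deltaEC and 3 Slc38a2flox/flox libraries were analysed from the raw UMI counts per gene and cell that the authors deposited. Per the submitters' processing notes, the tools were CASAVA 1.8, STARsolo 2.7.10a and Seurat, with the mm10 build. Cells with at least 200 genes and at most 25% mitochondrial UMIs were kept, and doublets were removed with Scrublet in scanpy 1.11.5 (expected rate 0.06), which marked 0.869% to 2.071% of cells per library. Cells were assigned to types where the mean marker z-score was at least 0.3, led the next type by 0.2 and rested on at least 3 markers, and at least 20 cells per library were required. UMIs were summed per library and type. Sums were tested with edgeR 4.0.16 (quasi-likelihood, TMM, filterByExpr, Benjamini-Hochberg threshold 0.05) under R 4.3.3, with DESeq2 1.42.0 as an alternative, after the code was tested on simulated data. Genotype was fitted within each type, and cell types and genotype differences between types were fitted with the library as a block. The interferon genes and other lists were chosen with earlier results of these data known. Named per type were the 3 genes with the smallest p, the 3 with the highest mean and 12 genes always described, while further genes were chosen after their values were seen. CPM values within a type, across the 4 main types and over all UMIs are on separate scales. Alternatives were other size factors, no filter on low counts, stricter and looser gates, no doublet removal, a replicate block and leaving out each library. Intervals cover counting error only. Gene positions are from GENCODE vM21 (GRCm38), which held 99.78% of the gene IDs. One further gene of the pathway is not reported here.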

Additional observations from a re-analysis of the deposited data

Results flagged for a closer look

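In groups of 4 libraries, 36 sets of values were examined for 1 library far from its own group, and 10 were found. Chance gives about 1 in 20 only for independent sets of normally distributed values chosen beforehand. These sets overlapped, since sums and their own genes were both among them, and genes were chosen by p or mean in these data. The count of 10 is therefore not to be set against chance. In 8 of them the library was knockout 4. Its summed gamma-like level in endothelial cells was 2827 CPM, against 899.1 to 1180 CPM in knockout 1 to 3, and its summed type I-like level in smooth muscle cells was 331.9 CPM, against 132.6 to 139.7 CPM. In its endothelial cells Ifit3 was at 83.06 CPM, against 34.71 to 39.23 CPM in knockout 1 to 3, Gbp2 at 716.1 CPM, against 165.7 to 202.4 CPM, and Gbp7 at 379.5 CPM, against 126.9 to 150.7 CPM. Gbp2 in its smooth muscle cells was at 49.22 CPM, against 16.63 to 18.28 CPM. Haemoglobin transcripts made up 1.318% of its UMIs, against 0.01829% to 0.08741% in knockout 1 to 3, and T cells made up 2.123% of its kept cells, against 0.2649% to 0.3424%. The other 2 were the summed gamma-like level in fibroblasts of knockout 1, at 421.6 CPM, against 739.8 to 792.4 CPM in knockout 2 to 4, and Ifih1 in macrophages of knockout 3, at 287 CPM, against 166.1 to 185 CPM in the other 3 knockout libraries. The flox controls, a group of 3, were not examined in this way.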

How the results depend on the processing

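In the cell-type contrasts the total number of listed genes called stayed within 1.5 times under every alternative run, with 29 to 33 called for endothelial cells against smooth muscle cells and fibroblasts and 25 to 29 for macrophages against endothelial cells when single libraries were left out. The split moved somewhat more for macrophages against endothelial cells, with 15 higher and 13 lower as reported, 17 and 9 without the filter on low counts, 16 and 10 with the looser gate and 16 and 9 without knockout 4. For genotype, leaving out the filter on low counts raised the count of genes called in macrophages to 4 (Isg15, Rsad2, Ifit1 and Ifih1, with edgeR adjusted p-values from 0.000587 for Rsad2 to 0.0465 for Ifih1), and raised the count for the difference between endothelial cells and macrophages to 2 (Ifit1 and Ifit3). Over all genes that setting called 31 in endothelial cells and 58 in macrophages, against 0 in each with the filter, and the cause was not tested. DESeq2 called 0, 11, 6 and 2 genes in endothelial cells, smooth muscle cells, fibroblasts and macrophages, none of them on the list. The endothelial median of 0.64 was 0.06 with the replicate block (0.0565) and lay between 0.0615 and 0.842 when single libraries were left out, lowest without knockout 4. Knockout 4 shares its number with no control, so the block leaves it without weight. Same-numbered libraries correlated at 0.153, 0.081 and 0.083 in endothelial cells, 0.28, 0.269 and 0.201 in smooth muscle cells, 0.248, -0.0603 and 0.319 in fibroblasts and 0.111, -0.149 and 0.176 in macrophages. Differently numbered libraries correlated at -0.138 to 0.0373 in endothelial cells and -0.19 to -0.0646 in smooth muscle cells, below every same-numbered pair of that type. In fibroblasts and macrophages knockout 1 correlated more with flox control 2, at 0.3 and 0.306, than with flox control 1. Whether the numbers mark pairs could not be told, and the fit without the block was kept as the main one. With the block, 0 listed genes were called in each type, and the median was -0.30 in smooth muscle cells (4 of 31 higher), -0.05 in fibroblasts (13 of 34) and -0.43 in macrophages (5 of 34). Under the block the endothelial fold change of Gbp2 was -0.19 and that of Gbp7 -0.079, and Eif2ak2 in smooth muscle cells was 0.0285 without the filter. With single libraries left out, the log2 fold change ranged from -0.56 to 0.10 for Irf1, -0.18 to 0.87 for Gbp2 and -0.064 to 0.61 for Gbp7 in endothelial cells, from -0.71 to 0.12 for Irf1, -0.0605 to 0.08 for Eif2ak2, -1.01 to -0.07 for Gbp2 and -0.77 to -0.07 for Irgm1 in smooth muscle cells, from -0.17 to 0.13 for Irf1, -0.0382 to 0.33 for Gbp2 and -0.40 to 0.34 for Irgm1 in fibroblasts, and from -2.70 to 0.34 for Rsad2, -1.57 to 0.13 for Oasl1, -1.51 to -0.15 for Ifih1 and -1.89 to -0.36 for Isg15 in macrophages. The smooth muscle median was 0.04 with DESeq2 (16 of 31 higher). Endothelial sums of 76 and 80 cells in knockout 1 and flox control 3 limit what could be seen for low genes.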
